A study of Saccharomyces cerevisiae with 8 samples.

Results

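The 39 genes described here are nuclear genes of budding yeast, Saccharomyces cerevisiae, that encode the respiratory chain and the mitochondrial ATP synthase. They were chosen by systematic name, with no threshold on a measured value but with earlier results of these data known, and they are 39 of the 10891 features in the deposited table. They comprise 13 genes of ATP synthase, 9 of cytochrome oxidase, 9 of the bc1 complex, 4 of succinate dehydrogenase, the 2 cytochrome c genes CYC1 and CYC7, and the 2 NADH dehydrogenase genes NDI1 and NDE1. All 39 passed the filter on low values.

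Electrons from NADH and succinate enter the yeast chain through the single-subunit NADH dehydrogenases and through succinate dehydrogenase, which also belongs to the TCA cycle. They pass through ubiquinone to the bc1 complex, then by cytochrome c to cytochrome oxidase, and the proton gradient made on the way drives ATP synthase. A few core subunits of these complexes come from mitochondrial DNA, and the nuclear genes are known to be kept low during growth on glucose and induced on non-fermentable carbon by the Hap2/3/4/5 activator, which binds CCAAT boxes.

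The series sequenced total RNA, depleted of rRNA, in 8 strand-specific libraries, 2 biological replicates in each of 4 groups. All groups were MATalpha cells in the W303 background that carry the tor1-1 allele, an FPR1 disruption (fpr1::NAT) and RPL13A-2xFKBP12::TRP1, a ribosomal protein gene fused to a rapamycin-binding domain. They were grown to an OD600 of 0.5 at 30 °C in YPD, a glucose medium. The parental strain had no further change, and the other strain carried DBP2-FRB-GFP-KanMX6, a tag on the DEAD-box RNA helicase Dbp2. Each strain was left untreated or given rapamycin at 1 µg/mL for 1 h, which in this anchor-away design bridges the tagged protein to the ribosomal anchor and takes it out of the nucleus. The label names the tag in the source name of the tagged samples and gives no clone number, so each strain has to be taken as a single strain. The strain difference without rapamycin is therefore the difference between the tagged strain and its parent, and with rapamycin the depletion is added to it.

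Values are read densities per nucleotide, which the authors scaled to ERCC spike-in RNAs, so a level depends on the amount of spike-in per amount of RNA. Whole reads recovered from the densities gave 22520528 to 27497250 yeast reads per library, with spike-ins at 2.94 to 4.44% of all reads. The spike-in share differed by strain without overlap, at 3.86 to 4.44% in the parental libraries and 2.94 to 3.65% in the tagged ones. The cause of this difference was not tested. The members had 105 to 28588 reads in a library, and depth did not limit them. Averaged over the 8 libraries, the median density was 3.41 over the members and 0.375 over protein-coding features. Of the 39 members 38 lay above that protein-coding median in these glucose cultures. DBP2 RNA had densities of 2.42 and 2.61 in untreated parental cells, 3.05 and 3.03 in untreated tagged cells, 2.29 and 2.59 in parental cells with rapamycin and 4.33 and 2.86 in tagged cells with rapamycin; it gives no check on a treatment that moves the protein. Fewer cells and less RNA per cell cannot be told apart in such bulk samples.

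The promoters of CYC1, CYC7 and ATP14, 3 of the members that differed most between the strains, are printed below with any CCAAT marked. So is that of SDH1, the member with the lowest strain difference. Each run covers 250 bases before to 50 after the start codon's first base, 5′ to 3′ on the coding strand, from the RefSeq copy of the R64 genome, and capitals mark CCAAT or its reverse complement ATTGG.

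CYC1, chrX:526085-526384, plus strand: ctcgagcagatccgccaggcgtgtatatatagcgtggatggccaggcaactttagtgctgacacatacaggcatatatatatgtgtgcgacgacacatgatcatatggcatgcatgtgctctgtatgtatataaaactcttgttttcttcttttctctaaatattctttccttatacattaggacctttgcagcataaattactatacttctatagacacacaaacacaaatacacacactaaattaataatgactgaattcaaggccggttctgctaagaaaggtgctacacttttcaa

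CYC7, chrV:79928-80227, minus strand: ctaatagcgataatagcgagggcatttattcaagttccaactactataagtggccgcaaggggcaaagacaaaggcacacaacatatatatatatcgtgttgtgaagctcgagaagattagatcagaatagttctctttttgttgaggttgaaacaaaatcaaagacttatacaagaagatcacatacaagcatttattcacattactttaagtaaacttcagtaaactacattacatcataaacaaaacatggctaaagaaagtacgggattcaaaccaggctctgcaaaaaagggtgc

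ATP14, chrXII:722324-722623, minus strand: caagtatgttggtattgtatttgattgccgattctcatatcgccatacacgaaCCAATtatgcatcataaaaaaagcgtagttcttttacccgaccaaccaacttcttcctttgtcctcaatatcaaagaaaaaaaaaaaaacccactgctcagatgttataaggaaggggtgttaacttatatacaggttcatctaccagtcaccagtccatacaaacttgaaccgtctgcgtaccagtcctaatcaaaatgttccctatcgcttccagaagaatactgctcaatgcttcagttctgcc

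SDH1, chrXI:171080-171379, minus strand: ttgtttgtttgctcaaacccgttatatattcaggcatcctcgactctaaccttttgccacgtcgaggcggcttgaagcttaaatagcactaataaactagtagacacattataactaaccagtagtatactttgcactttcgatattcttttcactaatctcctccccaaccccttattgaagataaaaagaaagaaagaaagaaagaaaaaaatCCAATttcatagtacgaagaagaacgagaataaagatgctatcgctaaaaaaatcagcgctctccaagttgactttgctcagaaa

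In these windows ATP14 and SDH1 have 1 match each, while CYC1 and CYC7 have none. Over the members, CCAAT on either strand occurred in 33 of 39 windows (84.6%), against 2601 of 6001 windows of all nuclear protein-coding genes (43.3%). The longer form TNATTGGT, which contains ATTGG, occurred in 16 of 39 member windows (41.0%) and in 5.75% of all windows. Windows without CCAAT belonged to ATP1, COX4, COR1, CYT1, CYC1 and CYC7, which include members with the highest and with some of the lowest strain differences. The median log2 fold change of the tagged strain over the parent was 0.49 untreated and 0.69 with rapamycin for the 33 members with a match. It was 0.37 and 0.62 for the 6 without. A match is a description of letters and not a shown binding site.

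Without rapamycin and relative to the spike-ins, most RNAs of the respiratory chain were more abundant in the Dbp2-FRB-GFP strain than in the parent. Cytochrome c, ATP14 and QCR7 were about double. This direction depended on the scaling, as given below. Of the 39 members 30 were called higher and 0 lower by limma at an adjusted p under 0.05, where 43.5% of all features tested were called higher and 2.75% lower. The median log2 fold change was 0.45 over the members, 0.36 over all 9719 features tested and 0.26 over protein-coding features, of which 33.1% were called higher. The higher calls comprised 9 of 13 genes of ATP synthase, 8 of 9 of cytochrome oxidase, 7 of 9 of the bc1 complex, 3 of 4 of succinate dehydrogenase, both cytochrome c genes and NDE1. Both tagged libraries exceeded both parental ones in 36 of 39 members, against 68.8% of all features. Some of the 30 calls were lost when either untreated tagged replicate or untreated parental replicate 1 was left out. The same held for either parental replicate with rapamycin, which lies outside this comparison. With scaling to snoRNAs instead, 19 of the 30 members called here had a negative log2 fold change.

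With rapamycin in both strains the same direction was found with larger differences. 36 of 39 members were called higher and 0 lower, where 70.3% of all features were called higher and 2.13% lower. The median log2 fold change was 0.69 over the members, 0.59 over all features and 0.50 over protein-coding features, of which 66.0% were called higher. The higher calls were 12 of 13 genes of ATP synthase, 8 of 9 of cytochrome oxidase, 9 of 9 of the bc1 complex, 3 of 4 of succinate dehydrogenase, and both genes each of cytochrome c and of the NADH dehydrogenases. Both tagged libraries exceeded both parental ones in 38 members, against 83.1% of all features. These shares of all features are the background against which each count stands.

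**Figure D1:**
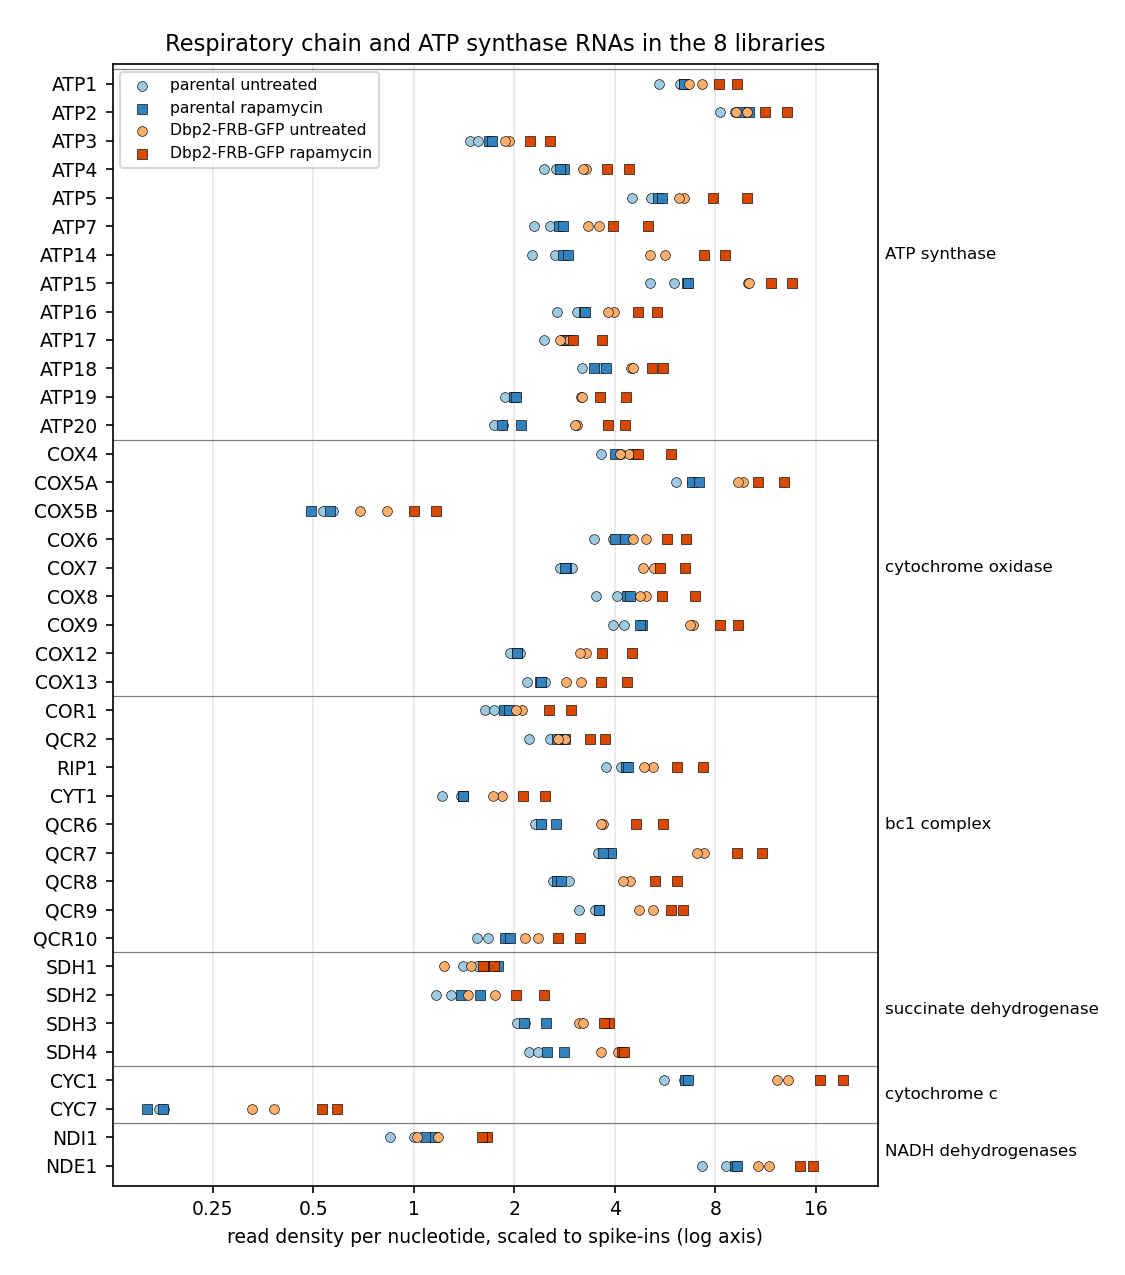
Read density of each of the 39 members (log axis) in the 8 libraries, grouped by complex; circles are untreated and squares rapamycin-treated libraries, blue parental and orange Dbp2-FRB-GFP. The tagged libraries lie to the right in most rows, with the widest gaps in CYC1, CYC7, ATP14 and QCR7, and SDH1 shows no separation by strain.

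**Figure D2:**
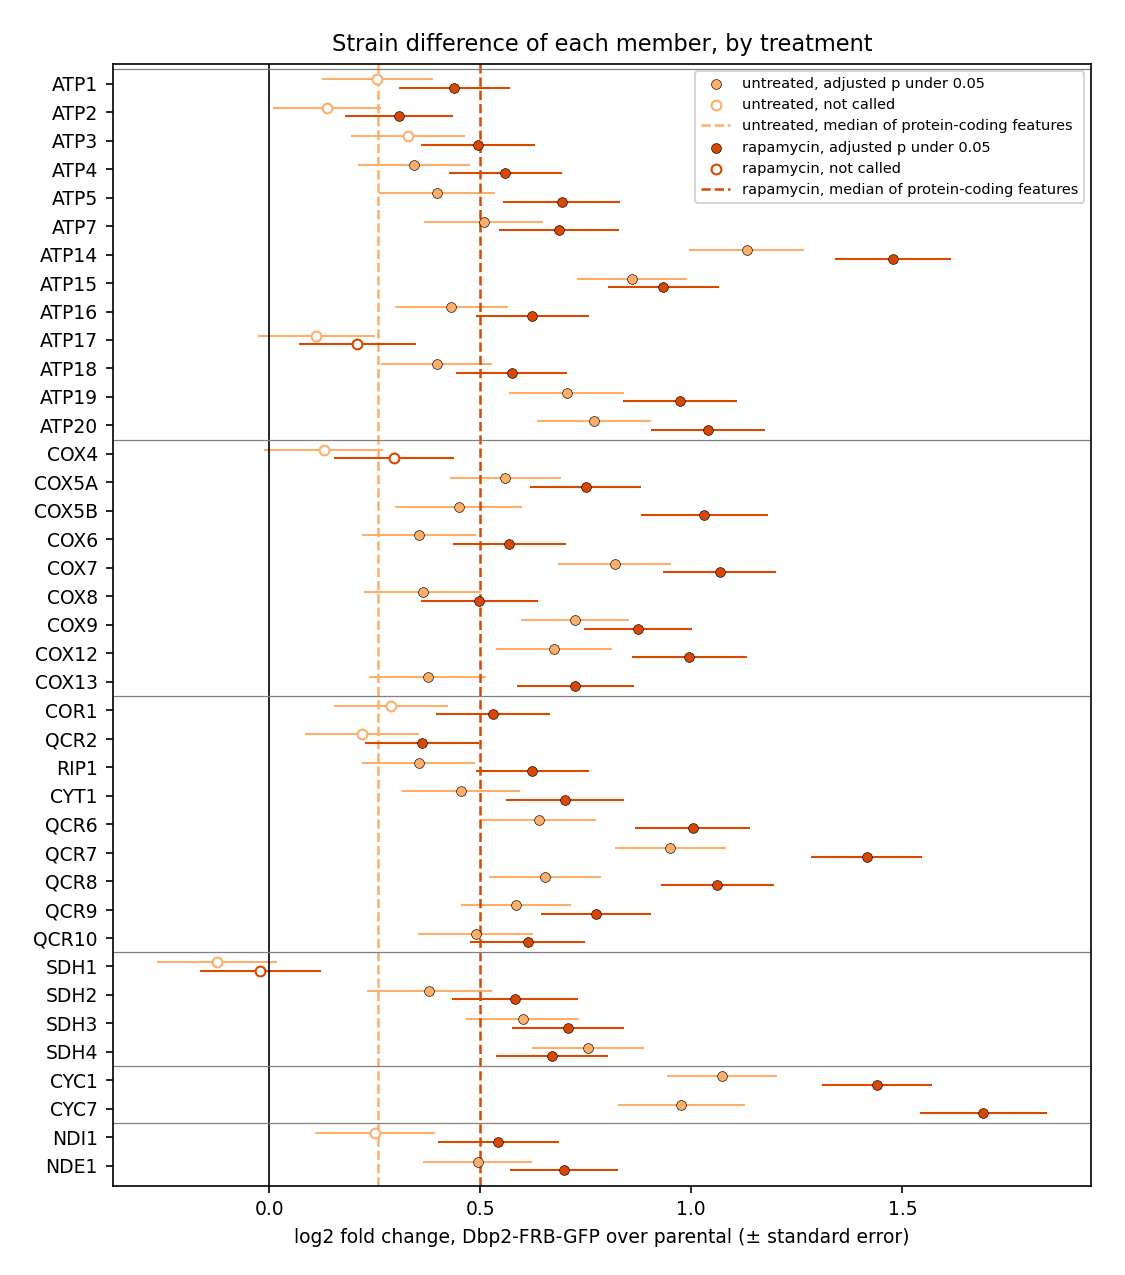
Log2 fold change of the Dbp2-FRB-GFP strain over the parental strain for each member, with its standard error from limma, without and with rapamycin; filled points have an adjusted p under 0.05 and dashed lines mark the medians of protein-coding features, 0.26 and 0.50. CYC7 with rapamycin is highest at 1.69, and SDH1 is lowest in both comparisons.

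A measure that needs no spike-ins, the share of protein-coding reads, also placed the tagged strain above the parent. It is relative to the other protein-coding RNAs and does not give an abundance. Reads of the 39 members made up 0.735 and 0.705% of protein-coding reads in the untreated parental libraries and 0.771 and 0.728% in the parental libraries with rapamycin. In the tagged strain the share was 0.889 and 0.890% untreated and 0.955 and 0.952% with rapamycin. All 4 tagged libraries thus lay above all 4 parental ones. The 95% Wilson interval, which covers counting error only, ran from 0.702 to 0.709% in the library with the lowest share, untreated parental replicate 2.

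**Figure D3:**
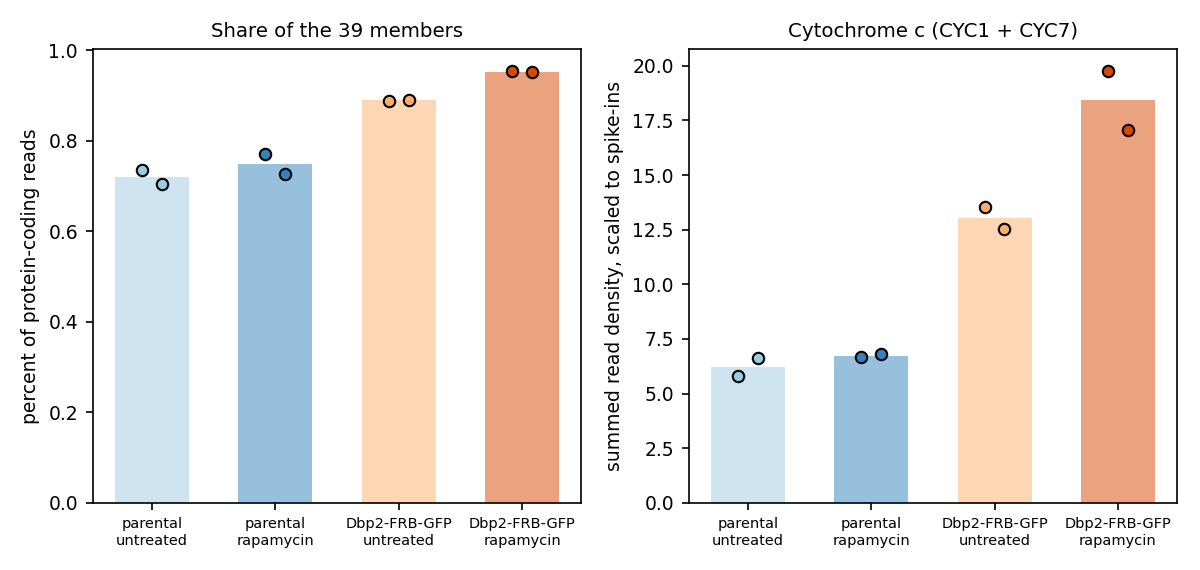
Left, reads of the 39 members as a percentage of protein-coding reads; right, summed read density of CYC1 and CYC7; points are libraries and bars the means of 2 libraries. The 2 tagged groups stand above the 2 parental groups in both panels.

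Cytochrome c, the soluble carrier between the bc1 complex and cytochrome oxidase, had the largest strain differences of the 6 groups. CYC1 (YJR048W, chrX:526335-526664, plus strand) encodes the major form, which dominates in aerobic cells. Its density was 5.61 and 6.45 in untreated parental cells, 13.2 and 12.2 in untreated tagged cells, 6.48 and 6.64 in parental cells with rapamycin, and 19.2 and 16.5 in tagged cells with rapamycin. The strains did not overlap under either treatment, and the highest libraries were the tagged ones with rapamycin. The log2 fold change between strains was 1.07 ± 0.13 (SE) untreated (limma adjusted p = 2.16e-06) and 1.44 ± 0.13 with rapamycin (limma adjusted p = 2.19e-08).

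CYC7 (YEL039C, chrV:79636-79977, minus strand) encodes the minor form, known to be favoured at low oxygen. Its density was 0.179 and 0.173 in untreated parental cells, 0.382 and 0.327 in untreated tagged cells, 0.178 and 0.159 in parental cells with rapamycin and 0.533 and 0.589 in tagged cells with rapamycin. CYC7 was the least abundant of the members, and its strains did not overlap. The log2 fold change was 0.98 ± 0.15 untreated (limma adjusted p = 3.36e-05) and 1.69 ± 0.15 with rapamycin (limma adjusted p = 1.76e-08), the largest of the 39.

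The proportion of the 2 forms was compared within each library. The density ratio of CYC1 to CYC7 was 31.4 and 37.3 in untreated parental cells and 34.5 and 37.3 in untreated tagged cells. With rapamycin it was 36.4 and 41.7 in parental cells and 36.1 and 28.0 in tagged cells. Averaged over both treatments, its log2 value was lower by 0.11 in the tagged strain (two-sided exact permutation of strain within treatment, p = 0.5 over 36 arrangements). This exact test cannot go below p = 0.0556, so it cannot show that the proportion was constant.

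The bc1 complex passes electrons from ubiquinol to cytochrome c. Its small subunit gene QCR7 (YDR529C, chrIV:1496165-1496548, minus strand) stood apart. QCR7 had densities of 3.57 and 3.90 in untreated parental cells, 7.38 and 7.05 in untreated tagged cells, 3.91 and 3.70 in parental cells with rapamycin, and 11.1 and 9.31 in tagged cells with rapamycin. The parental libraries were alike under both treatments and every tagged library was higher. The log2 fold change between strains was 0.95 ± 0.13 untreated (limma adjusted p = 1.03e-05) and 1.42 ± 0.13 with rapamycin (limma adjusted p = 3.18e-08).

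QCR8 and QCR6, which encode other small subunits, came next by p. QCR8 had densities of 2.60 and 2.92 in untreated parental cells, 4.43 and 4.24 in untreated tagged cells, 2.68 and 2.76 in parental cells with rapamycin, and 6.13 and 5.26 in tagged cells with rapamycin. QCR6 had 2.30 and 2.40, 3.69 and 3.63, 2.40 and 2.66, and 5.57 and 4.62 in the same order. In both genes the strains did not overlap, with log2 fold changes of 0.65 and 0.64 untreated and 1.06 and 1.00 with rapamycin. The genes of the 2 core proteins, COR1 and QCR2, had the smallest values of the complex, with log2 fold changes of 0.29 and 0.22 untreated, not called (limma adjusted p = 0.0854 and 0.186), and of 0.53 and 0.36 with rapamycin, called. RIP1, the Rieske iron-sulfur protein, and CYT1, cytochrome c1, lay between at 0.35 and 0.45 untreated and 0.62 and 0.70 with rapamycin. RIP1 had densities of 3.75 and 4.16, 5.21 and 4.90, 4.32 and 4.38, and 7.32 and 6.15 in the order used for QCR6.

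Cytochrome oxidase reduces oxygen. COX7, which encodes a small subunit, had densities of 2.73 and 2.97 in untreated parental cells, 5.24 and 4.84 in untreated tagged cells, 2.86 and 2.83 in parental cells with rapamycin, and 6.50 and 5.47 in tagged cells with rapamycin. The strains did not overlap, and the parental densities were alike under both treatments. The log2 fold change was 0.82 ± 0.13 untreated (limma adjusted p = 6.35e-05) and 1.07 ± 0.13 with rapamycin (limma adjusted p = 1.38e-06). COX12, whose product faces the intermembrane space, had densities of 1.93 and 2.07, 3.27 and 3.14, 2.03 and 2.03, and 4.50 and 3.66 in the same order of groups. COX9, another small subunit gene, had 3.94 and 4.26, 6.83 and 6.71, 4.83 and 4.75, and 9.33 and 8.26. The strains did not overlap in these 2 genes either.

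COX5A and COX5B encode alternative forms of 1 subunit, the first known to be favoured in air and the second at low oxygen. COX5A had densities of 6.08 and 6.82 in untreated parental cells, 9.67 and 9.32 in untreated tagged cells, 6.80 and 7.14 in parental cells with rapamycin, and 12.8 and 10.7 in tagged cells with rapamycin. COX5B had 0.536 and 0.573, 0.834 and 0.691, 0.561 and 0.493, and 1.17 and 1.00 in that order. Both genes were higher in the tagged strain without overlap. The log2 fold changes were 0.56 ± 0.13 and 0.45 ± 0.15 untreated (limma adjusted p = 0.00173 and 0.0188) and 0.75 ± 0.13 and 1.03 ± 0.15 with rapamycin (5.5e-05 and 7.5e-06). The ratio of COX5A to COX5B was 11.3 and 11.9 in untreated parental cells and 11.6 and 13.5 in untreated tagged cells, which overlapped. With rapamycin it was 12.1 and 14.5 in parental cells and lower, 11.0 and 10.7, in tagged cells. Averaged over both treatments, its log2 value was lower by 0.09 in the tagged strain (two-sided exact permutation p = 0.556, smallest possible 0.0556). Adjusted over the 2 ratios by Benjamini-Hochberg, each exact p is 0.556. COX4, which encodes a zinc-binding subunit, had the smallest strain differences of its complex, in the same direction, and was its single gene not called. It had densities of 3.64 and 4.18 in untreated parental cells, 4.40 and 4.13 in untreated tagged cells, 4.01 and 4.57 in parental cells with rapamycin, and 5.87 and 4.70 in tagged cells with rapamycin. The untreated strains overlapped and the treated ones did not, and neither difference was called (0.13 ± 0.14 and 0.30 ± 0.14 on the log2 scale, limma adjusted p = 0.465 and 0.0657).

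ATP synthase has a catalytic F1 head and a membrane part, F0, joined by stalks. The outlier was ATP14 (YLR295C, chrXII:721999-722373, minus strand), which encodes subunit h of the peripheral stalk. ATP14 had densities of 2.26 and 2.65 in untreated parental cells, 5.64 and 5.11 in untreated tagged cells, 2.80 and 2.90 in parental cells with rapamycin, and 8.57 and 7.37 in tagged cells with rapamycin. The lowest tagged library was well above the highest parental one. Its log2 fold change was 1.13 ± 0.14 untreated (limma adjusted p = 1.98e-06), the largest of the 39, and 1.48 ± 0.14 with rapamycin (limma adjusted p = 2.89e-08).

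ATP15 encodes the epsilon subunit of the central stalk, and ATP20 and ATP19 encode subunits g and k of the membrane part. ATP15 had densities of 5.09 and 6.01 in untreated parental cells, 10.02 and 10.07 in untreated tagged cells, 6.57 and 6.64 in parental cells with rapamycin, and 13.6 and 11.7 in tagged cells with rapamycin. ATP20 had 1.74 and 1.85, 3.08 and 3.05, 1.84 and 2.09, and 4.29 and 3.81 in that order. The strains did not overlap in either gene, nor in ATP19 (1.88 and 2.02, 3.17 and 3.20, 2.00 and 2.02, and 4.33 and 3.60), which had log2 fold changes of 0.70 untreated and 0.97 with rapamycin. Among the other F1 genes, ATP16 (delta) was called at 0.43 untreated, while ATP1 (alpha), ATP2 (beta) and ATP3 (gamma) had log2 fold changes of 0.26, 0.14 and 0.33, not called (limma adjusted p = 0.115, 0.392 and 0.0512). With rapamycin ATP1, ATP2 and ATP3 were called at 0.44, 0.31 and 0.49. ATP17, which encodes subunit f, was not called in either comparison (0.11 and 0.21 on the log2 scale, limma adjusted p = 0.518 and 0.176). ATP17 had densities of 2.46 and 2.78 in untreated parental cells, 2.91 and 2.74 in untreated tagged cells, 2.84 and 2.90 in parental cells with rapamycin, and 3.66 and 3.01 in tagged cells with rapamycin. The remaining 5 genes, ATP4, ATP5, ATP7, ATP16 and ATP18, ran from 0.34 to 0.51 untreated and from 0.56 to 0.69 with rapamycin, all called.

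Succinate dehydrogenase was split by subunit. SDH1 (YKL148C, chrXI:169207-171129, minus strand), the flavoprotein, had densities of 1.40 and 1.54 in untreated parental cells, 1.48 and 1.23 in untreated tagged cells, 1.79 and 1.62 in parental cells with rapamycin, and 1.74 and 1.61 in tagged cells with rapamycin. The strains overlapped under both treatments. SDH1 was the single member with a fold change below 0 in both strain comparisons, -0.12 ± 0.14 untreated and -0.02 ± 0.14 with rapamycin, not called (limma adjusted p = 0.487 and 0.90).

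The membrane anchors differed from it. SDH3 had densities of 2.03 and 2.15 in untreated parental cells, 3.13 and 3.21 in untreated tagged cells, 2.48 and 2.14 in parental cells with rapamycin, and 3.84 and 3.71 in tagged cells with rapamycin. SDH4 had 2.21 and 2.36, 4.10 and 3.63, 2.82 and 2.50, and 4.21 and 4.25 in that order. Neither gene had overlapping strains. Their log2 fold changes were 0.60 and 0.76 untreated and 0.71 and 0.67 with rapamycin (limma adjusted p at most 0.00114). SDH2, the iron-sulfur subunit, had densities of 1.17 and 1.29, 1.75 and 1.46, 1.58 and 1.39, and 2.45 and 2.02, without overlap of the strains, and was called at 0.38 and 0.58.

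Among the NADH dehydrogenases, NDE1, which oxidises cytosolic NADH, had the higher density and NDI1, which oxidises matrix NADH, the lower. NDE1 had densities of 7.29 and 8.61 in untreated parental cells, 11.6 and 10.7 in untreated tagged cells, 9.17 and 9.26 in parental cells with rapamycin, and 15.6 and 14.3 in tagged cells with rapamycin. NDI1 had 0.850 and 0.999, 1.18 and 1.02, 1.15 and 1.08, and 1.65 and 1.60 in that order. NDE1 was called in both strain comparisons (0.49 and 0.70 on the log2 scale), and NDI1 was called with rapamycin (0.54, limma adjusted p = 0.00222) but not without (0.25, limma adjusted p = 0.152).

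Coding length ran with the strain difference. Shorter members had larger log2 fold changes, with a Spearman correlation over the 39 members of -0.59 untreated and -0.54 with rapamycin; the members share the same libraries. Over 5675 protein-coding genes the correlations were -0.34 and -0.37. Coding regions of 51 to 873 nt, the shortest of 3 classes of about equal size, hold 30 of the 39 members. Among these 30 and among all genes of that range the median log2 fold change was 0.57 and 0.38 untreated, and 0.74 and 0.66 with rapamycin. ATP17 (306 nt) and COX4 (468 nt) are short and had small differences, so length did not order every member. The part of length in these differences was not tested.

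**Figure D4:**
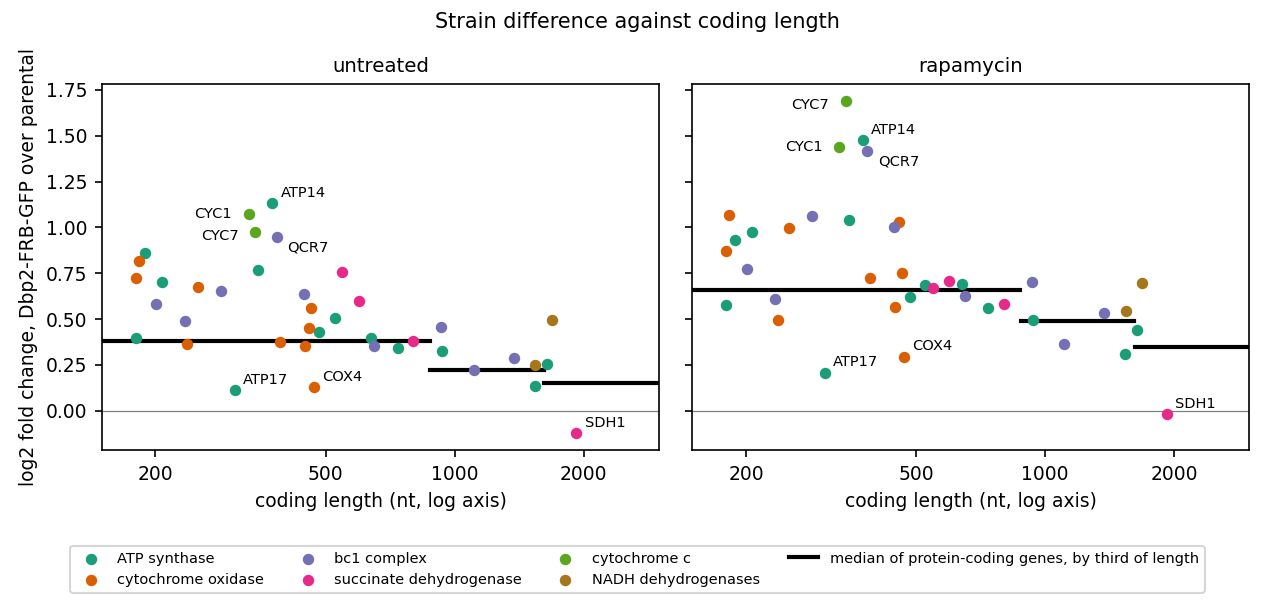
Log2 fold change of the Dbp2-FRB-GFP strain over the parent against coding length (log axis) for the 39 members, coloured by complex, untreated on the left and with rapamycin on the right; black bars are medians of protein-coding genes in 3 classes of length of about equal size. Shorter members lie higher, CYC1, CYC7, ATP14 and QCR7 lie between 330 and 384 nt, and SDH1, the longest, is lowest.

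The direction of many members depended on what was held constant. Scaling to protein-coding features shifted the median of all features from 0.36 to 0.12 untreated and from 0.59 to 0.12 with rapamycin, and scaling to snoRNAs shifted it to -0.24 and -0.04. With protein-coding scaling 21 members were higher and 2 lower untreated (SDH1 and ATP17), and 21 higher and 5 lower with rapamycin (SDH1, ATP17, COX4, ATP2 and QCR2). Of all features 28.0% were then higher and 14.9% lower untreated, and 29.6% higher and 18.6% lower with rapamycin. With snoRNA scaling 0 members were higher and 4 lower untreated, and 4 higher and 1 lower with rapamycin, against 6.79% of all features higher and 20.8% lower untreated, and 12.7% higher and 10.9% lower with rapamycin. Quantile normalization gave 28 members higher and 1 lower untreated (16.7 and 19.4% of all features), and 26 higher and 2 lower with rapamycin (20.2 and 23.0%).

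The 4 members that stayed called higher with rapamycin under each of the 3 other scalings (protein-coding features, snoRNAs, quantiles) were CYC1, CYC7, ATP14 and QCR7. Their log2 fold changes with snoRNA scaling were 0.76, 1.03, 0.80 and 0.74 (limma adjusted p = 0.00062, 5.4e-05, 0.001 and 0.002). Without rapamycin none of them passed under snoRNA scaling, with values of 0.42, 0.34, 0.48 and 0.30. SDH1 was called lower under all 3 of these scalings in both strain comparisons, from -0.32 to -0.78 on the log2 scale. The order among members does not depend on a factor per library: relative to the median member, SDH1 was at -0.69 untreated and -0.84 with rapamycin, ATP17 at -0.46 and -0.61 and COX4 at -0.44 and -0.52. CYC1 was at 0.50 and 0.62, CYC7 at 0.44 and 0.92, ATP14 at 0.56 and 0.66, and QCR7 at 0.38 and 0.60.

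**Figure D5:**
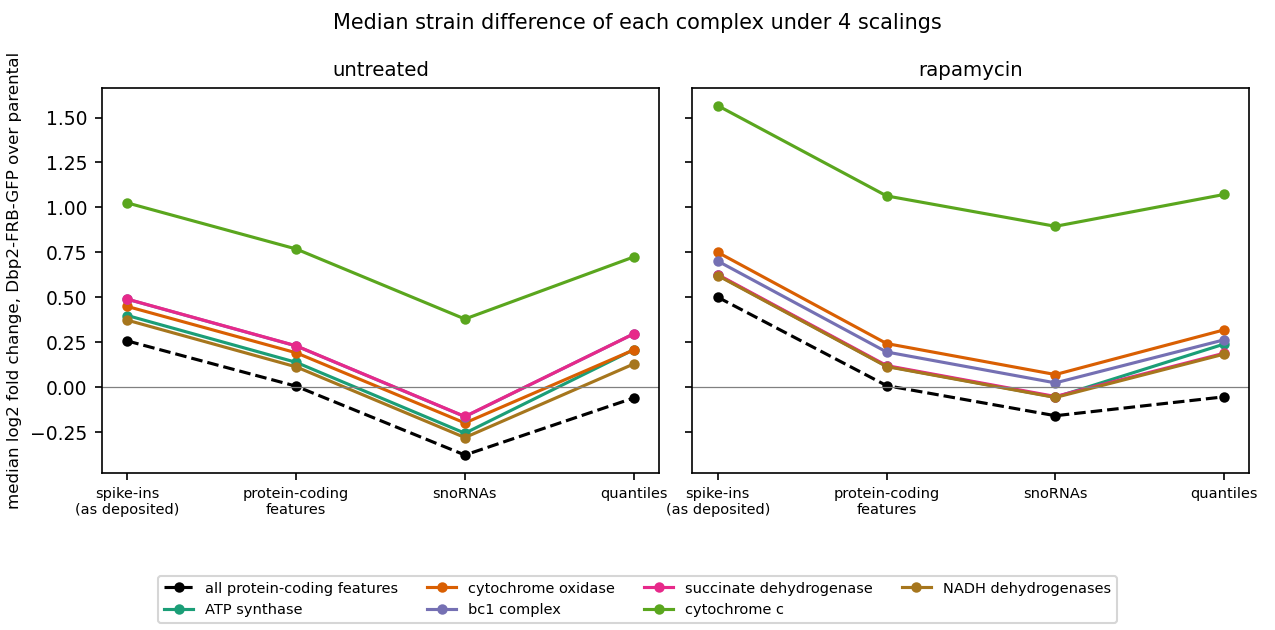
Median log2 fold change of the Dbp2-FRB-GFP strain over the parent in each complex and over protein-coding features (dashed), under the deposited spike-in scaling and 3 others, untreated and with rapamycin. Every complex stays above the protein-coding median, cytochrome c stays above 0 throughout, and the others fall below 0 with snoRNA scaling untreated.

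In the parental strain, in which no protein carries the FRB tag, no member passed the test for rapamycin. By limma 0 of 39 were called, where 0.0206% of all features were called higher and 0.0103% lower; 0 members had an unadjusted p under 0.05 and voom on the recovered reads called 0. The log2 fold changes ran from -0.07 to 0.27 with a median of 0.14, against 0.10 over all features, and 35 of 39 were above 0. Both treated libraries exceeded both untreated ones in 25 of 39 members and were below them in 0, against 28.7% of all features with higher treated libraries. The missing calls therefore do not show that rapamycin left these RNAs alike.

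In the tagged strain 12 of 39 members were called higher with rapamycin and 0 lower, where 13.3% of all features were called higher and 0.144% lower. The median log2 fold change was 0.37 over the members and 0.32 over all features. It was 0.34 over protein-coding features, of which 16.5% were called higher. Called were CYC7 (0.65 ± 0.15, limma adjusted p = 0.0184), ATP14 (0.56 ± 0.14, 0.0239), NDI1 (0.56 ± 0.14, 0.0282), CYC1 (0.49 ± 0.13, 0.0317), QCR7 (0.49 ± 0.13, 0.0323), QCR6, ATP5, COX5B, NDE1, SDH2, RIP1 and COR1. ATP5, the stalk subunit OSCP, went from 6.46 and 6.20 to 9.94 and 7.84. All 39 members had both treated libraries above both untreated ones, against 76.5% of all features. The 2 treated replicates stood apart: replicate 1 was higher in 37 of 39 members, by a median of 1.16-fold, against 1.15-fold over all features. The calls rest on single libraries, since between 0 (without untreated tagged replicate 2) and 35 (without treated tagged replicate 2) members were called when 1 library was left out, 1 was called without untreated or without treated tagged replicate 1, and 24 without either of the untreated parental replicates. None was called with the other 3 scalings.

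Whether rapamycin acted differently in the 2 strains was tested by the interaction term. It was called for 0 of 39 members by limma, where 0.0309% of all features were called higher and 0.0103% lower; 4 members had an unadjusted p under 0.05 and voom called 0. The largest value was that of CYC7, 0.72 ± 0.21 on the log2 scale (limma adjusted p = 0.266). The larger strain differences with rapamycin are therefore not shown to differ from those without it.

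The subunits that mitochondrial DNA encodes were measured in the same libraries. Their summed density was 81.4 and 85.9 in untreated parental cells, 109 and 106 in untreated tagged cells, 91.6 and 93.8 in parental cells with rapamycin, and 138 and 127 in tagged cells with rapamycin. Of 7 genes, 4 were called higher in the tagged strain untreated (COX2, COX3, COB and OLI1) and 6 with rapamycin, all but ATP6, with 0 lower. These are 57.1% and 85.7% of the 7, where 43.5% and 70.3% of all features were called higher. Medians were 0.33 and 0.50 on the log2 scale, below the 0.45 and 0.69 of the nuclear members. They were also below the 0.36 and 0.59 over all features. COX2 had a log2 fold change of 0.33 ± 0.12 untreated and 0.56 ± 0.12 with rapamycin, COX3 of 0.39 and 0.55, COB of 0.43 and 0.45, OLI1 of 0.37 and 0.50, COX1 of 0.28 and 0.31, ATP6 of 0.26 and 0.13, and ATP8 of 0.16 and 0.60. With protein-coding scaling 0 were called untreated and 2 were lower with rapamycin.

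Among 12 regulators of respiratory genes, 7 were called higher untreated and 9 with rapamycin, and 0 lower. These are 58.3% and 75.0%, where 43.5% and 70.3% of all features were called higher. The median log2 fold change of the 12 was 0.45 untreated and 0.40 with rapamycin, against 0.36 and 0.59 over all features. HAP4, the activating subunit that limits the Hap complex, had densities of 0.638 and 0.746 in untreated parental cells, 1.25 and 1.22 in untreated tagged cells, 0.705 and 0.820 in parental cells with rapamycin, and 1.62 and 1.36 in tagged cells with rapamycin. The strains did not overlap. Its log2 fold change was 0.84 ± 0.15 untreated (limma adjusted p = 0.00015) and 0.96 ± 0.15 with rapamycin (limma adjusted p = 1.5e-05). ROX1, the heme-induced repressor of hypoxic genes such as COX5B, had 1.12 ± 0.16 and 1.51 ± 0.16 (limma adjusted p = 1.9e-05 and 2.4e-07). HAP1, the heme-responsive activator of CYC1 and CYC7, had 0.13 ± 0.15 and 0.39 ± 0.15 (0.49 and 0.029). Of the 3 subunits that bind CCAAT together, HAP2 and HAP3 were called at 0.62 and 0.51 untreated and 0.58 and 1.00 with rapamycin. HAP5 had 0.13 untreated, not called (limma adjusted p = 0.53), and 0.39 with rapamycin, called (limma adjusted p = 0.038). With snoRNA scaling HAP4 had 0.18 and 0.28 and was not called, and ROX1 had 0.49, not called, and 0.85, called.

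Other genes that serve the chain were called higher untreated about as often as all features, or less often. Of all features 43.5% were called higher untreated and 70.3% with rapamycin, with median log2 fold changes of 0.36 and 0.59. Untreated, the share called higher was 45.7% for assembly factors, 23.1% for activators of mitochondrial mRNAs and 36.4% for coenzyme Q synthesis. It was 12.5% for heme synthesis and 37.5% for further dehydrogenases and paralogs. With rapamycin assembly factors (82.9%) and coenzyme Q synthesis (81.8%) exceeded the share of all features, and the remaining lists did not. Of 35 assembly factors 16 were higher untreated and 29 with rapamycin, with medians of 0.30 and 0.56; the largest with rapamycin were PET100 (1.32) and COX17 (1.26), which serve cytochrome oxidase, the latter as its copper chaperone. Of 13 activators of mitochondrial mRNAs 3 and 9 were higher, of 11 coenzyme Q synthesis genes 4 and 9 (COQ10 at 0.78 and 1.12), and of 8 heme synthesis genes 1 and 4 (HEM4 at 0.77 and 1.04). Of 8 further dehydrogenases and paralogs 3 and 5 were higher, among them CYB2, the lactate dehydrogenase, at 0.43 and 0.97. Median log2 fold changes of the lists after the assembly factors, in the order given, were 0.29, 0.25, 0.11 and 0.26 untreated. With rapamycin they were 0.55, 0.46, 0.34 and 0.65, of which only the last exceeded that of all features. No gene of these 5 lists was called lower, where 2.75% of all features were untreated and 2.13% with rapamycin.

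The TCA cycle, which feeds the chain, had the lowest medians of the lists counted here, 0.05 and 0.23 on the log2 scale, with 2 of 12 genes higher untreated and 5 with rapamycin. Of all features 43.5% and 70.3% were called higher in these comparisons. The 2 genes higher untreated were IDH1 and IDH2, the subunits of NAD-dependent isocitrate dehydrogenase, at 0.53 and 0.48. With protein-coding scaling 7 of the 12 were called lower in each strain comparison. With rapamycin in the tagged strain 5 of the 12 were called higher, beside 13.3% of all features, with IDH2 at 0.69 and CIT1, citrate synthase, at 0.68. In the parental strain 0 were called, but all 12 were above 0, with a median of 0.22 against 0.10 over all features. IDH2 was at 0.30 and CIT1 at 0.37 there. The interaction of strain and rapamycin was called for 0 of the 12.

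Around ATP synthase, 4 of 5 genes for the dimer subunit, inhibitors and related factors were higher in each strain comparison, among them STF2 at 0.61 and 1.31. Of 8 carriers and porins 5 were higher and 2 lower untreated, and 6 higher and 1 lower with rapamycin. PIC2, a phosphate carrier, was higher (0.78 and 1.36). POR1, the outer-membrane porin, was lower under every scaling, at -0.31 and -0.35 with the deposited one. AAC3, the ADP/ATP carrier known to be induced without oxygen, was lower untreated (-0.85 ± 0.21, limma adjusted p = 0.0026) and not called with rapamycin (-0.23 ± 0.21, limma adjusted p = 0.31). It was called lower in both comparisons under the other 3 scalings. Of 34 genes of the mitochondrial large ribosomal subunit 12 and 30 were higher, with medians of 0.30 and 0.55, against 0.36 and 0.59 over all features. Of all features 43.5% were called higher and 2.75% lower untreated, and 70.3% and 2.13% with rapamycin.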

How the data were processed

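The deposited values are a signal, the read density of each feature per nucleotide, with 1 column for every library beside averages of the groups, per the file headers. The submitters' processing notes name Trim Galore, HISAT2 2.2.0, featureCounts 2.0.0, DESeq2 and the R64 build. Whether counting used strand is not stated there. The densities were found to be whole reads (all positive values, 100.0%, within 0.01 reads, partly by construction since feature lengths were chosen for it) divided by feature length and by factors equal to median-of-ratios factors of the 92 ERCC spike-ins. The feature was longer than the coding region in 36 members, so levels depend on the annotated ends.

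Tests were run in R 4.3.3 by limma 3.58.1. Densities were taken as log2(density + 0.00735), where the added constant is the 5th percentile among values above 0, and limma used a trend and a common spread (residual degrees of freedom 4, prior 17.2). Spike-ins and features with a mean density under 0.0127 were left out, which left 9719. P-values are two-sided, adjusted by Benjamini-Hochberg over all features in each of 5 comparisons, at 0.05. Fold changes are on that log2 scale. The scripts were tested on simulated data. The design text states 2 biological replicates.

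Members were set by systematic name, with no measured threshold, and members and lists were chosen with earlier results of these data known. All members may be named; library values are given for CYC1, CYC7, COX5A, COX5B, up to 3 called members per complex and comparison by lowest p, and members that differ from the rest of their complex; from other lists up to 4 called genes by lowest p, HAP4, HAP1, ROX1 and the mitochondrial DNA subunits. Scaling to snoRNAs used 77 snoRNAs. Promoters came from R64. Length, TNATTGGT and the 3′ motif were looked at after the data were seen. A protein identity between paralogs was planned and not done. Other steps used Python 3.11.15 with scipy 1.17.1, numpy 2.4.6, matplotlib 3.10.9 and pandas 2.3.3.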

Additional observations from a re-analysis of the deposited data

How the results depend on the processing

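The 2 libraries per group limit every call. The limma p-values rest only in part on the spread of each gene between these cultures. With residual degrees of freedom 4 and prior 17.2, that spread is drawn strongly toward the trend over all features tested. Direction against the spike-ins is the main dependence. With snoRNA scaling the untreated strain comparison turned negative in 19 called members, with log2 values of -0.31 for ATP4, -0.26 for ATP5, -0.15 for ATP7, -0.22 for ATP16, -0.26 for ATP18, -0.10 for COX5A, -0.20 for COX5B, -0.30 for COX6, -0.29 for COX8, -0.28 for COX13, -0.30 for RIP1, -0.20 for CYT1, -0.016 for QCR6, -0.00077 for QCR8, -0.070 for QCR9, -0.16 for QCR10, -0.27 for SDH2, -0.053 for SDH3 and -0.16 for NDE1. With rapamycin it turned negative in 15, at -0.24 for ATP1, -0.37 for ATP2, -0.18 for ATP3, -0.12 for ATP4, -0.056 for ATP16, -0.11 for ATP18, -0.11 for COX6, -0.18 for COX8, -0.15 for COR1, -0.32 for QCR2, -0.056 for RIP1, -0.066 for QCR10, -0.10 for SDH2, -0.0089 for SDH4 and -0.13 for NDI1. Protein-coding scaling with rapamycin turned ATP1 to -0.068, ATP2 to -0.20, ATP3 to -0.011, COX8 to -0.0095 and QCR2 to -0.14, and quantile normalization turned ATP1 to -0.065, ATP2 to -0.12 and QCR2 to -0.068. The cause was not tested.

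Members called higher and lower were 0 and 4 untreated and 4 and 1 with rapamycin under snoRNA scaling, 21 and 2, and 21 and 5 under protein-coding scaling, and 28 and 1, and 26 and 2 under quantile normalization. Rapamycin in the tagged strain called 12, and 0 with each of those scalings or without a filter, 1 without a trend, 6 with a replicate block and 24 with voom. Leaving out 1 library at a time gave 16 to 32 members higher in the untreated strain comparison (16 without untreated tagged replicate 1, 17 without untreated parental replicate 1), 33 to 38 with rapamycin and 0 to 35 for rapamycin in the tagged strain; the lone library of a group was assumed to vary like the others. The replicate numbers share only a number (correlations of -0.13 to 0.15 between deviations), and the replicate block gave 24 and 34 members higher in the strain comparisons. Of the 30 and 36 called members, 16 and 21 were called under all alternatives but snoRNA scaling, and 0 and 4 under all. Other pseudocounts left the strain counts at 30 and 36. An interaction fit of only the groups compared is the same as the main one.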

Other observations

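The site TGTANATA, which Puf3 is known to bind in mRNAs for mitochondrial proteins, was searched on the coding strand in the 200 nt after the stop codon. It was present after 34 of 34 genes of the mitochondrial large ribosomal subunit and after 844 of 6002 nuclear protein-coding genes (14.1%). The respiratory members were near that background, with 5 of 39 (12.8%), namely ATP1, ATP18, ATP19, COX8 and SDH1. The motif ATTGTT, a core of Rox1 sites, was in 16 of 39 member promoters (41.0%) and in 35.2% of all promoters. PUF3 itself had log2 fold changes of 0.31 ± 0.15 in both strain comparisons and was not called (limma adjusted p = 0.089 untreated and 0.064 with rapamycin).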
